A study of Mus musculus with 24 samples.

Results

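The genes described here are the 2 type 2 alarmins Il33 and Tslp, their receptor genes Il1rl1 and Crlf2, and the 3 receptor chains for IL-4 and IL-13, Il4ra, Il13ra1 and Il13ra2. They were taken by symbol from the Ensembl gene table, which held 51912 genes, and all 7 were among the 17287 genes that passed the filter on low counts and were tested. RNA was sequenced from whole mouse ear in 24 libraries of 4 groups, 6 libraries each: CARD14E138A day 5, Wt day 5, CARD14E138A 1 month and Wt 1 month. All mice were C57BL/6, and every group, the Wt groups included, had received tamoxifen into the peritoneum on 3 consecutive days, with time counted from the first injection. In CARD14E138A mice tamoxifen acts through CreERT2 to switch on the E138A change in Card14, a keratinocyte scaffold gene upstream of NF-κB, from the gene's own locus. The labels name neither the promoter that drives CreERT2 nor whether Wt mice carry it, and do not say whether the libraries of a group came from separate animals, so p-values measure the spread between these libraries. The study asked what the mutation does at once and over a longer time.

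IL-33 and TSLP are cytokines that barrier tissues release on damage or inflammation. IL-33 binds ST2, the product of Il1rl1, which works with IL1RAP and signals through MYD88, and TSLP binds the CRLF2 chain, which works with IL-7Rα and signals through JAK kinases and STAT5. Type 2 lymphocytes, mast cells, eosinophils, basophils and dendritic cells carry these receptors, and all but the dendritic cells can answer with IL-4, IL-5 or IL-13. IL-4 and IL-13 share IL-4Rα, which pairs with the common γ chain or with IL-13Rα1 and signals through STAT6, while IL-13Rα2 binds IL-13 tightly, is best known as a decoy receptor, and in mice also occurs in soluble form.

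Total counts were 16803734 to 18852993 in CARD14E138A day 5 libraries and 15661568 to 16998934 in Wt day 5 libraries. At 1 month they were 20608312 to 23022178 in CARD14E138A libraries and 19255037 to 23905033 in Wt libraries. The 1-month libraries differed among themselves in base composition and in the level of long against short genes. A GC index, the median log2 level of GC-rich genes less that of GC-poor genes relative to Wt day 5, ran from -0.457 to 1.83 in CARD14E138A 1 month libraries and from -0.359 to 1.27 in Wt 1 month libraries, against -0.228 to 0.302 and -0.119 to 0.211 in the CARD14E138A and Wt libraries of day 5. At day 5 it was above 0.2 in CARD14E138A replicate 6 and Wt replicate 5, and both were kept in every split at 0.2, which concerns 1-month libraries alone. At 1 month it was above 0.2 in replicates 1, 2 and 6 of CARD14E138A and in replicates 2, 3, 4 and 5 of Wt. A length index, made alike from exon length, was -0.897 to -0.399 in these libraries and -0.0851 to 0.145 in the other 1-month libraries. For the 7 genes, 1-month results that moved with the GC index are given below for each side of 0.2. Above 0.2 the index was 0.688 to 1.83 in CARD14E138A and 0.410 to 1.27 in Wt libraries. Below it the index was -0.457 to -0.349 in CARD14E138A and -0.359 to -0.0481 in Wt libraries. The split thus does not make composition equal between the genotypes. Lists of other genes are given over all libraries, and some counts moved. Higher IL-4 and IL-13 targets went from 14 to 12 on each side, and higher eosinophil markers from 4 to 2. Higher mast cell markers went from 7 to 9 on the low side and stayed at 7 on the high side. Card14 was 35.1 to 65.4 counts per 1000000 (CPM) in CARD14E138A day 5 libraries and 34.6 to 54.2 CPM in Wt day 5 libraries, and 9.93 to 25.3 CPM in CARD14E138A 1 month and 32.9 to 49.9 CPM in Wt 1 month libraries. Counts per gene do not hold the E138A change and so do not check the label. All groups held keratinocyte, fibroblast, endothelial, muscle, fat and cartilage transcripts.

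All 5 receptor genes rose at day 5 and 4 of them at 1 month, and the 2 ligands were not called at either time. At day 5, 5 of the 7 genes, Il1rl1, Crlf2, Il4ra, Il13ra1 and Il13ra2, were higher in CARD14E138A than in Wt ears and none was lower, at an adjusted p below 0.05 (edgeR quasi-likelihood test, Benjamini-Hochberg over all genes tested). Of all genes tested, 20.7% were higher and 20.2% lower in that comparison, 40.9% in all. At 1 month 4 of the 7 were higher, Il1rl1, Crlf2, Il4ra and Il13ra2, and none was lower, where 25.5% of all genes were higher and 21.5% lower, 47.1% in all. The median log2 fold change of the 7 genes was 0.84 at day 5 and 0.80 at 1 month, beside medians of -0.02 and 0.05 over all genes tested. In whole tissue, more or fewer cells of a type cannot be told apart from more or less RNA per cell.

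**Figure D1:**
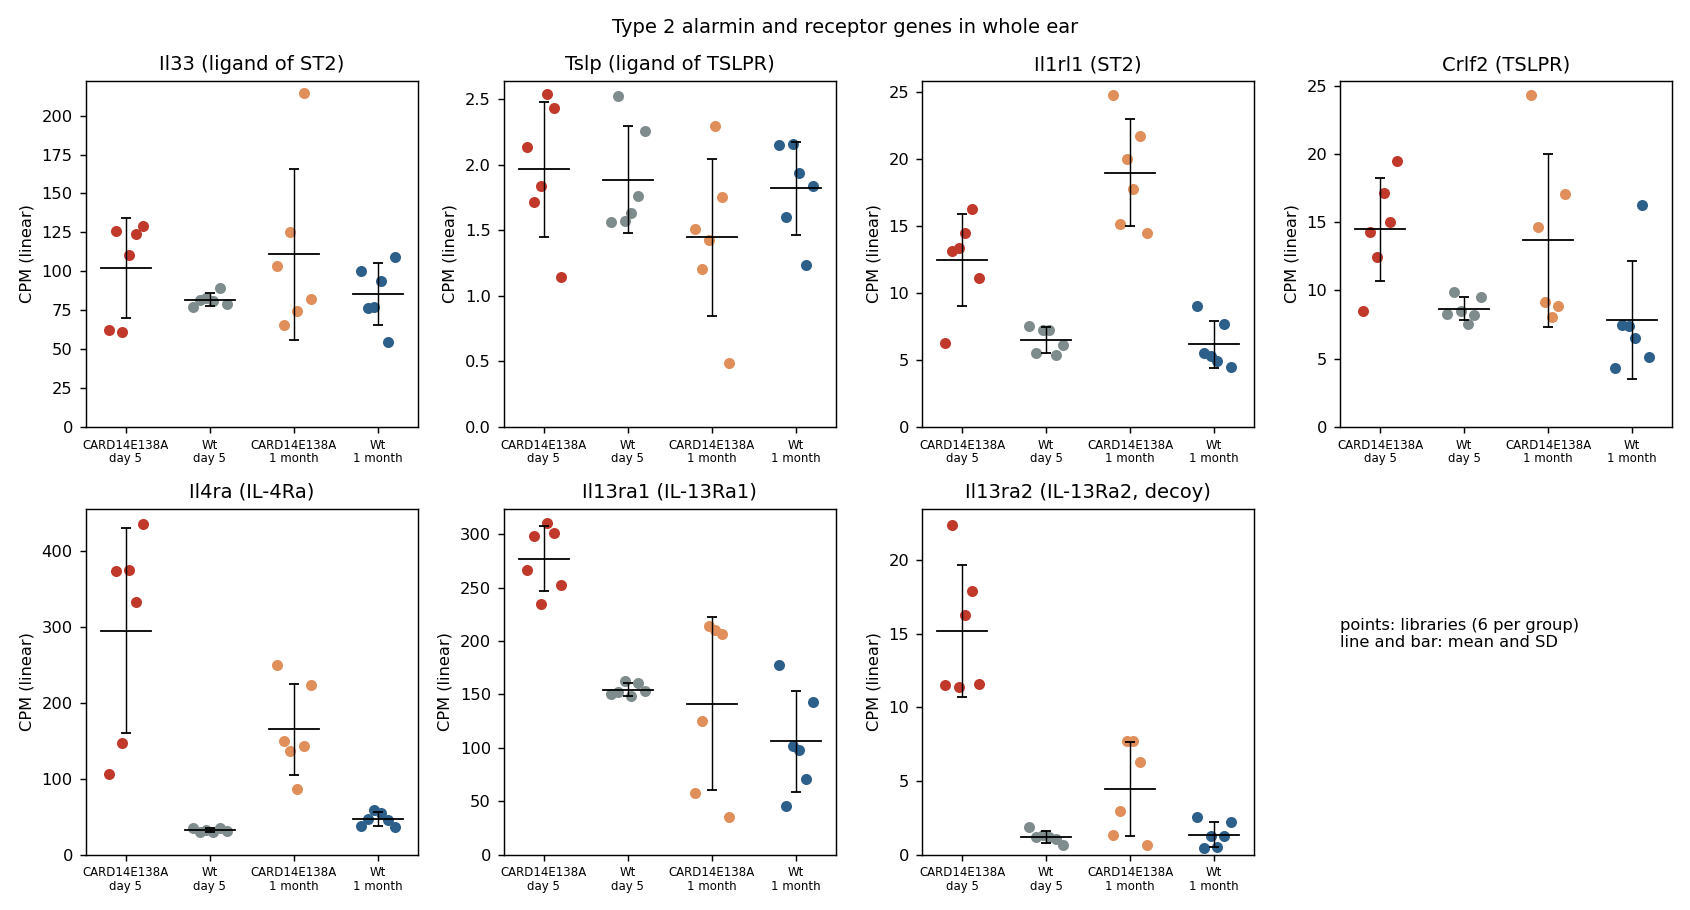
CPM of the 7 genes on linear axes from 0, with 1 point per library, 6 libraries per group, and the mean and SD as line and bar. Il4ra, Il13ra1 and Il13ra2 had no overlap between CARD14E138A and Wt at day 5, Il1rl1 and Il4ra had none at 1 month, and the points of Il33 and Tslp overlapped at both times. The share of all genes without overlap was not counted, so no overlap is not shown to be particular to these genes.

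Il33, at chr19:29925114-29960718 (plus strand) in GRCm38, was the alarmin with more counts per kb of exon. At day 5 its lowest, median and highest levels were 60.7, 117 and 129 CPM in CARD14E138A ears, against 76.9, 81.2 and 89.5 CPM in Wt ears. The CARD14E138A libraries lay on both sides of all Wt libraries: replicates 1 and 3 were below every Wt library and the other 4 above every one. In log2 terms the difference was 0.32 ± 0.25 (SE, n = 6 each), with an adjusted p of 0.319 in edgeR, so the difference was within the spread.

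At 1 month Il33 had 65.2, 92.9 and 214 CPM as lowest, median and highest level in CARD14E138A ears, and 54.5, 85.3 and 109 CPM in Wt ears. The groups overlapped, and CARD14E138A replicate 5 was the highest library. The log2 fold change of 0.38 ± 0.24 (SE) was not called in edgeR (adjusted p = 0.218), and without replicate 5 it was 0.08. The 95% intervals of the log2 fold change, -0.19 to 0.83 at day 5 and -0.13 to 0.89 at 1 month, leave room for a rise of the size seen in Crlf2.

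Tslp, on chromosome 18, was near the lower end of what these libraries measure, with 10 to 55 counts per library. At day 5 it had 1.14, 1.99 and 2.54 CPM as lowest, median and highest level in CARD14E138A ears, against 1.56, 1.70 and 2.53 CPM in Wt ears. At 1 month the levels were 0.486, 1.47 and 2.30 CPM in CARD14E138A ears and 1.24, 1.89 and 2.16 CPM in Wt ears. CARD14E138A and Wt libraries were interleaved at both times. Tslp had a log2 fold change of 0.06 ± 0.26 (SE; edgeR adjusted p = 0.874) at day 5 and -0.33 ± 0.26 (SE; adjusted p = 0.319) at 1 month. Tslp shares genome sequence with the long noncoding RNA 4930455D15Rik on the opposite strand, and since no source used here states whether counting used strand, reads of the 2 genes may not be told apart.

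Il1rl1, which encodes the IL-33 receptor ST2 and lies at chr1:40429570-40465415 (plus strand), rose at both times. Day 5 ears of CARD14E138A mice had 6.29, 13.2 and 16.3 CPM as lowest, median and highest level, against 5.36, 6.64 and 7.52 CPM in Wt ears. All CARD14E138A libraries but replicate 1 were above every Wt library. Its log2 fold change was 0.94 ± 0.20 (SE; edgeR adjusted p = 0.000698), 1.92-fold.

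At 1 month Il1rl1 had 14.5, 18.9 and 24.8 CPM as lowest, median and highest level in CARD14E138A ears, and 4.49, 5.41 and 8.99 CPM in Wt ears. Every CARD14E138A library was above every Wt library. Il1rl1 had a log2 fold change of 1.62 ± 0.20 (SE; edgeR adjusted p = 6.9e-07), 3.08-fold, and it was 1.54 and 1.62 in the 1-month libraries with a GC index below and above 0.2. The genotype difference at 1 month less that at day 5 was 0.68 ± 0.28 on the log2 scale, which was not called (adjusted p = 0.156). Counts per gene do not separate the membrane and the soluble form of ST2, which the same gene encodes.

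Crlf2, which encodes the ligand-binding TSLP receptor chain and lies at chr5:109554709-109558993 (minus strand), was higher in CARD14E138A ears at both times, by a margin that many settings did not keep. Its day 5 levels were 8.48, 14.6 and 19.5 CPM as lowest, median and highest in CARD14E138A ears, against 7.58, 8.40 and 9.86 CPM in Wt ears. CARD14E138A replicate 1 fell within the Wt range and the other 5 were above it. Crlf2 had a log2 fold change of 0.74 ± 0.29 (SE; edgeR adjusted p = 0.0434). That adjusted p went up to 0.0583 with no filter on low counts and to 0.104 at most when a library was left out, with the call lost in 10 of those 24 fits (any Wt day 5 library, or replicate 2, 4, 5 or 6 of CARD14E138A day 5), and down to 0.000869 when only the day 5 libraries were fitted.

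At 1 month Crlf2 had 8.08, 11.9 and 24.3 CPM as lowest, median and highest level in CARD14E138A ears, against 4.34, 6.93 and 16.2 CPM in Wt ears. The highest values of both genotypes were in libraries with a high GC index, and Crlf2 is GC-rich, at 65.6% in its longest transcript. Below an index of 0.2 it had 8.08 to 9.13 CPM in 3 CARD14E138A libraries and 4.34 to 5.09 CPM in 2 Wt libraries. Above it, the ranges were 14.6 to 24.3 CPM in 3 CARD14E138A and 6.49 to 16.2 CPM in 4 Wt libraries. Over all libraries its log2 fold change was 0.80 ± 0.29 (SE; edgeR adjusted p = 0.0245), and it was 0.88 (adjusted p = 0.00661) and 0.98 (adjusted p = 0.00581) within the low and the high side. The call was lost without replicate 1 or 6 of CARD14E138A 1 month or without replicate 1, 4 or 6 of Wt 1 month, at an adjusted p of up to 0.0985, and with only the 1-month libraries in the fit (0.103).

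The 3 IL-4 and IL-13 receptor genes, which were all higher at day 5, have unlike sequences before their starts. Their 250 bases before the annotated start are shown from RefSeq (GRCm38.p6), 5′ to 3′ on the gene's strand, because the signalling chains and the decoy differ in kind here. The Il4ra window ends at 125552270, past the gene start of 125552120 in the GENCODE annotation that gave the gene positions. By that annotation part of the Il4ra window lies inside the gene. Capitals mark the matches to any of 6 motifs searched on both strands. The first is TATAAA, the core promoter element that places the start of transcription in many inducible genes. The AP-1 motif searched was TGANTCA, bound by dimers of JUN and FOS proteins. STAT proteins were searched by TTCNNNGAA and by the STAT6-type motif, which has 1 more N in the middle. The other motifs were an NF-κB core motif and, for C/EBP proteins, TTGCNNAA.
Il4ra (chr7:125552021-125552270, plus strand): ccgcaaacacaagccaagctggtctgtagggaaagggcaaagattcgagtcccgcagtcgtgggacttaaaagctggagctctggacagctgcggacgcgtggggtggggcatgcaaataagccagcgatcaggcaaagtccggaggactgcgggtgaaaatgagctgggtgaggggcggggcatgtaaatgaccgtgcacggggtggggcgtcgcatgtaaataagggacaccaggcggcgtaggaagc
Il13ra1 (chrX:36111858-36112107, plus strand): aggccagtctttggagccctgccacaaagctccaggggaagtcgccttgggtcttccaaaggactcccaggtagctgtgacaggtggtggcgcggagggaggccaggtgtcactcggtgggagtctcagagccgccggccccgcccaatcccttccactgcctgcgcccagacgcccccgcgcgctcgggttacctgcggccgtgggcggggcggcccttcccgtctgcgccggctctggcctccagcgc
Il13ra2 (chrX:147429193-147429442, minus strand): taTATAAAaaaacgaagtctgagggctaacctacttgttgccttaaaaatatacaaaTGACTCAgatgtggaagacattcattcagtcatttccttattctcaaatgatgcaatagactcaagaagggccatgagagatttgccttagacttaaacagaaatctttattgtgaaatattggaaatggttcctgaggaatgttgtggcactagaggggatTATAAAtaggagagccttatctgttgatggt
The windows of Il4ra and Il13ra1 are 59.6% and 70.8% GC with 17 and 21 CpG dinucleotides, and the Il13ra2 window is 36% GC with 1. The Il13ra2 window holds TATAAA at -31 to -26 and at -248 to -243, counted from the start, and an AP-1 motif, TGANTCA, at -193 to -187. No match to the 6 motifs is in the Il4ra, Il13ra1 or Crlf2 windows. Il33 has 2 annotated starts, with TATAAA at -203 to -198 and the STAT6-type motif at -36 to -27 before the first and TATAAA at -29 to -24 and TTGCNNAA at -85 to -78 before the second, and the first of the 2 starts of Il1rl1 has TTGCNNAA at -34 to -27. Of 32851 windows of the same length, 12.4% hold TATAAA, 6.75% TGANTCA, 5.85% the STAT6-type motif, 7.02% TTCNNNGAA, 1.21% the NF-κB motif and 9.56% TTGCNNAA. No match overlaps another in the windows of the 7 genes. A window was at hand for 6 of the 7 genes, and a match is a description of letters, not a binding site.

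Il4ra, which encodes the signalling chain common to IL-4 and IL-13 and lies at chr7:125552120-125579474 (plus strand), had the largest rise of the 7 genes in CPM at day 5. At day 5 it had 106, 353 and 436 CPM as lowest, median and highest level in CARD14E138A ears, against 29.4, 31.5 and 35.6 CPM in Wt ears. The groups lay far apart, and within CARD14E138A replicates 1 and 3, at 106 and 147 CPM, were well below the other 4, which had 334 to 436 CPM. The same 2 libraries were the lowest of their group for Il33. Levels of S100a8, a gene of neutrophils and inflamed keratinocytes, were 763 and 900 CPM in these 2 libraries and 2045 to 3507 CPM in the other 4. Its part in the result was not tested. Il4ra had a log2 fold change of 3.20 ± 0.30 (SE; edgeR adjusted p = 1.92e-08), 9.22-fold.

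At 1 month Il4ra had 86.5, 147 and 249 CPM as lowest, median and highest level in CARD14E138A ears, and 36.1, 46.6 and 59.3 CPM in Wt ears, with no overlap. On the log2 scale this was a rise of 1.81 ± 0.28 (SE; edgeR adjusted p = 1.07e-05), 3.52-fold. It was 1.73 and 1.99 on the low and the high side of the GC index. The level itself was higher on the high side in both genotypes. On the low side Il4ra had 86.5 to 144 CPM in 3 CARD14E138A and 36.1 to 37.5 CPM in 2 Wt libraries. On the high side it had 150 to 249 CPM in 3 CARD14E138A and 45.7 to 59.3 CPM in 4 Wt libraries. Il4ra overlaps an antisense gene, Gm44876, on the opposite strand of chromosome 7, so its count may include reads of that gene.

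Il13ra1, the X-linked chain that pairs with IL-4Rα in cells outside the lymphoid lineage, lies at chrX:36112110-36171259 (plus strand) and rose at day 5. It had 234, 282 and 310.1 CPM as lowest, median and highest level in CARD14E138A ears, against 149, 153 and 163 CPM in Wt ears, with a wide gap between the groups. The log2 fold change was 0.84 ± 0.33 (SE; edgeR adjusted p = 0.0467). The adjusted p was 4.77e-07 when only the day 5 libraries were fitted and 7.06e-07 with the GC index as a covariate, while with scaling to total counts it was 0.0725 and without the filter 0.0813, and leaving out 1 library lost the call in 14 of 24 fits (adjusted p up to 0.0807). These were the fits without any Wt day 5 library, any CARD14E138A day 5 library but replicate 3, replicate 2 of CARD14E138A 1 month or replicate 3 or 4 of Wt 1 month.

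At 1 month the level of Il13ra1 followed the GC index of the library in both genotypes. Over all libraries the lowest, median and highest levels were 35.0, 166 and 214 CPM in CARD14E138A ears and 45.9, 99.7 and 177 CPM in Wt ears. The log2 fold change of 0.42 ± 0.33 (SE) was not called in edgeR (adjusted p = 0.324). On the low side of the index the ranges were 206 to 214 CPM in 3 CARD14E138A libraries and 143 to 177 CPM in 2 Wt libraries, with a log2 fold change of 0.39 (adjusted p = 0.0127). On the high side they were 35.0 to 125 CPM in 3 CARD14E138A and 45.9 to 101 CPM in 4 Wt libraries, with a log2 fold change of -0.14 (adjusted p = 0.691). With the index as a covariate over all libraries the log2 fold change was 0.29 (adjusted p = 0.0167). The longest transcript of Il13ra1 is 41.2% GC.

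Il13ra2, the X-linked decoy receptor at chrX:147383476-147429192 (minus strand), had the largest fold change of the 7 genes at day 5. It had 11.4, 13.9 and 22.4 CPM as lowest, median and highest level in CARD14E138A ears, against 0.638, 1.20 and 1.85 CPM in Wt ears. Every CARD14E138A library was several times above the highest Wt library. Il13ra2 had a log2 fold change of 3.64 ± 0.51 (SE; edgeR adjusted p = 5.25e-06), 12.5-fold.

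At 1 month Il13ra2 was spread from 0.632 over a median of 4.65 to 7.74 CPM in CARD14E138A ears, against 0.452, 1.25 and 2.54 CPM as lowest, median and highest level in Wt ears. The log2 fold change was 1.70 ± 0.48 (SE; edgeR adjusted p = 0.00488), 3.26-fold, and the groups overlapped. On the low side of the GC index they did not: Il13ra2 had 6.32 to 7.74 CPM in 3 CARD14E138A and 2.18 to 2.54 CPM in 2 Wt libraries, a log2 fold change of 1.61 (adjusted p = 0.000689). On the high side the levels were 0.632 to 2.97 CPM in 3 CARD14E138A and 0.452 to 1.26 CPM in 4 Wt libraries, and the log2 fold change of 0.93 was not called (adjusted p = 0.093). At 37.4% GC it is the most AT-rich of the 7 genes.

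**Figure D2:**
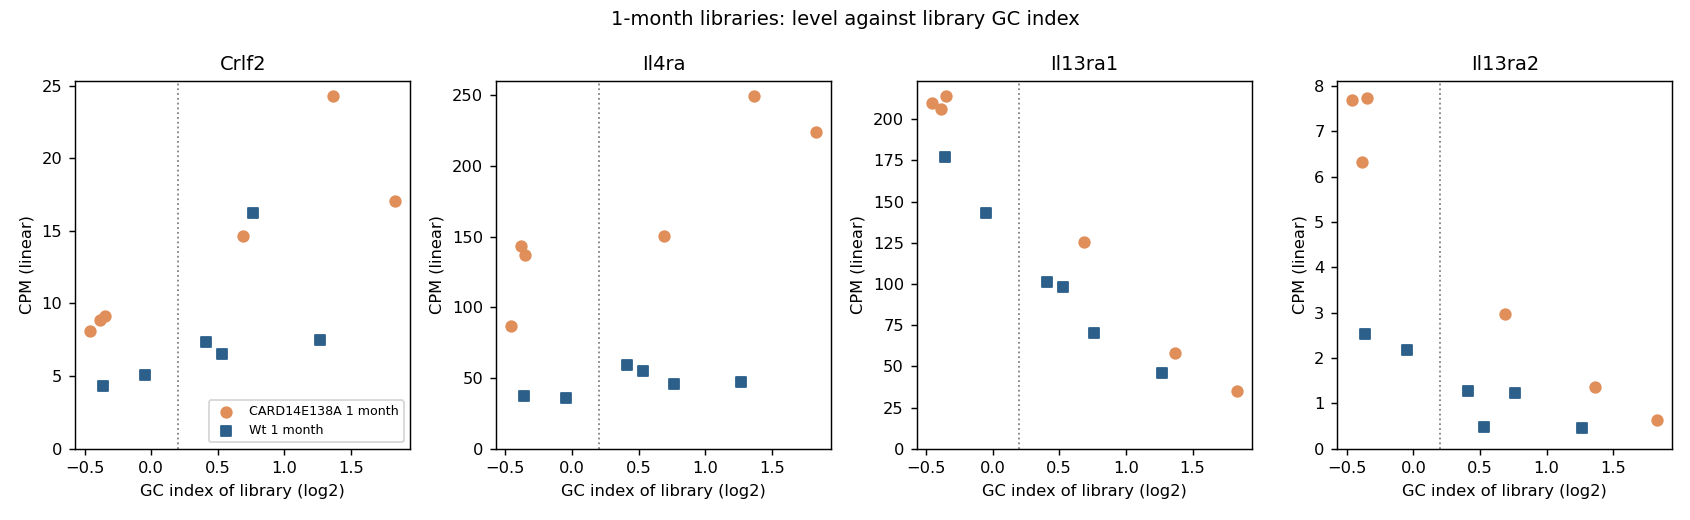
CPM (linear axis) of 4 receptor genes in the 12 libraries of 1 month against the GC index of the library on the log2 scale, with circles for CARD14E138A, squares for Wt and a dotted line at 0.2. Il13ra1 and Il13ra2 are lower and Crlf2 mostly higher at a high index in both genotypes. Il4ra is also higher at a high index in both. It separates the genotypes throughout, at 86.5 to 249 CPM in CARD14E138A and 36.1 to 59.3 CPM in Wt.

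With the GC index as a covariate, 5 of the 7 genes were higher at 1 month in edgeR, Il13ra1 now among them, and none was lower, where 31.5% of all genes were higher and 30.5% lower. That setting was added after the data had been seen.

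**Figure D3:**
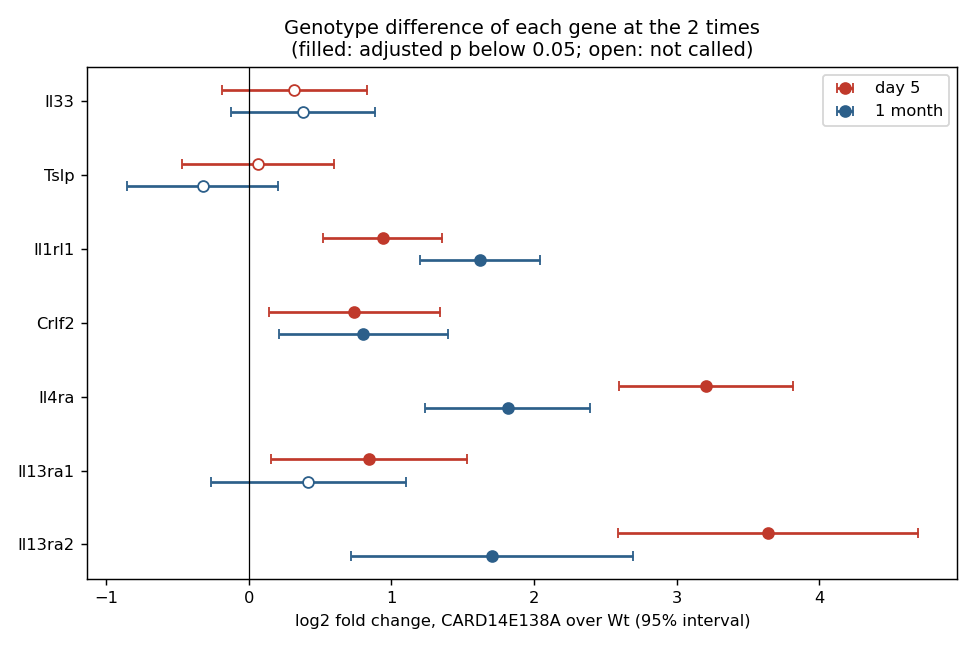
Log2 fold change, CARD14E138A over Wt, of the 7 genes at day 5 and at 1 month, with 95% intervals, filled where the adjusted p was below 0.05. Il4ra and Il13ra2 are at 3.20 and 3.64 at day 5 and at 1.81 and 1.70 at 1 month, while Il1rl1 is at 0.94 and 1.62.

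The genotype difference was called as different between the times for 1 of the 7 genes. Il4ra rose less at 1 month than at day 5, by -1.39 ± 0.39 on the log2 scale (SE; edgeR interaction test, adjusted p = 0.0251). In this test 8.77% of all genes were called, 4.68% with a larger and 4.09% with a smaller value at 1 month. The call was lost in the 1-month libraries of the low side (-1.47, adjusted p = 0.0882) and of the high side (-1.19, adjusted p = 0.0738). For Il13ra2 the difference was -1.94 ± 0.68 (SE) with an adjusted p of 0.0792 in edgeR, 0.0318 in DESeq2 and 8.5e-05 with the GC index as a covariate. With that covariate 3 of the 7, Il4ra, Il13ra1 and Il13ra2, were lower and none was higher, where 8.86% of all genes were lower and 8.80% higher. The median of this difference was -0.39 for the 7 genes and 0.02 over all genes.

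Within CARD14E138A ears, 4 of the 7 genes differed between 1 month and day 5, 1 higher and 3 lower, where 11.2% of all genes were higher and 8.23% lower, 19.4% in all. Il1rl1 was higher at 1 month than at day 5, at 19.0 ± 3.97 and 12.4 ± 3.45 CPM (SD, n = 6 each), a log2 change of 0.61 ± 0.20 (SE; edgeR adjusted p = 0.0324). Il4ra was lower, at 165 ± 60.4 CPM at 1 month and 295 ± 135 CPM at day 5 (SD), a log2 change of -0.84 ± 0.27 (SE; adjusted p = 0.032). Il13ra2 was lower too, at 4.45 ± 3.20 CPM at 1 month and 15.2 ± 4.50 CPM at day 5 (SD), with no overlap and a log2 change of -1.76 ± 0.45 (SE; adjusted p = 0.00719). Il13ra1 had 141 ± 80.9 CPM at 1 month and 277 ± 30.5 CPM at day 5 (SD), a log2 change of -0.97 ± 0.33 (SE; adjusted p = 0.0431).

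These time differences cross the difference in base composition. In the low-side libraries the log2 change of Il13ra1 was -0.38 (edgeR adjusted p = 0.00419) and that of Il13ra2 -1.04 (adjusted p = 0.00245), and in the high-side libraries they were -1.91 and -3.18. For Il4ra the low side gave -1.25 (adjusted p = 0.0136) and the high side -0.46 (adjusted p = 0.218). Crlf2 fell on the low side, by 0.71 on the log2 scale (adjusted p = 0.00583), and Tslp on the high side, by 0.86 (adjusted p = 0.0276), while neither was called over all libraries. The calls of Il1rl1, Il4ra and Il13ra1 were also lost with only the CARD14E138A libraries in the fit, at adjusted p of 0.0852, 0.131 and 0.128. Leaving out 1 library lost the call of Il1rl1 in 4 of 24 fits (replicates 1 and 6 of CARD14E138A day 5, 1 and 5 of CARD14E138A 1 month), that of Il4ra in 8 (replicates 2, 4, 5 and 6 of day 5, 2 to 5 of 1 month) and that of Il13ra1 in 14 (any CARD14E138A day 5 library, any Wt day 5 library but replicate 3, and replicates 1, 2 and 6 of CARD14E138A 1 month), at adjusted p of up to 0.0876, 0.0873 and 0.0991.

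In Wt ears 0 of the 7 genes were called between 1 month and day 5 in edgeR, 0 at an unadjusted p below 0.05 and 0 in DESeq2, and 2 in limma voom, where 9.09% of all genes were called, 6.28% higher and 2.81% lower. Il4ra came nearest, at 36.1 to 59.3 CPM at 1 month and 29.4 to 35.6 CPM at day 5. The groups did not overlap, and the log2 change was 0.55 ± 0.27 (SE; edgeR adjusted p = 0.207), or 0.59 (adjusted p = 0.00846) with only the Wt libraries in the fit. This difference too crosses base composition. The 2 Wt 1 month libraries with a GC index below 0.2 had 36.1 and 37.5 CPM, and the 4 above it had 45.7 to 59.3 CPM. The medians of the 7 genes were -0.44 in CARD14E138A and -0.05 in Wt, beside -0.02 and -0.03 over all genes tested. The 2 time comparisons and the 2 genotype comparisons share groups.

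Per kilobase of exon, the order of the 7 genes differed between the groups. In CARD14E138A day 5 ears Il13ra1 led at 74.6 ± 8.22 CPM per kb (SD, n = 6), followed by Il4ra at 49.2 ± 22.5 and Il33 at 35.4 ± 11.1 CPM per kb. Below these were Crlf2 at 9.68 ± 2.54, Il13ra2 at 6.65 ± 1.97, Il1rl1 at 1.80 ± 0.50 and Tslp at 1.48 ± 0.39 CPM per kb. In Wt day 5 ears the order was Il13ra1 at 41.6 ± 1.54, Il33 at 28.3 ± 1.49, Crlf2 at 5.79 ± 0.57, Il4ra at 5.33 ± 0.42, Tslp at 1.42 ± 0.31, Il1rl1 at 0.94 ± 0.14 and Il13ra2 at 0.53 ± 0.17 CPM per kb. Il4ra thus stood at rank 2 in CARD14E138A and 4 in Wt ears, and Il13ra2 at rank 5 and 7.

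The ranges of neighbours in that order overlapped for Il13ra1 and Il4ra, Il4ra and Il33, Crlf2 and Il13ra2, and Il1rl1 and Tslp in CARD14E138A day 5 ears, and for Crlf2 and Il4ra and for Il1rl1 and Il13ra2 in Wt day 5 ears. In CARD14E138A 1 month ears the order was Il33 at 38.4 ± 19.1, Il13ra1 at 38.1 ± 21.8, Il4ra at 27.5 ± 10.1, Crlf2 at 9.15 ± 4.24, Il1rl1 at 2.75 ± 0.58, Il13ra2 at 1.95 ± 1.40 and Tslp at 1.09 ± 0.45 CPM per kb, and Crlf2 and Il1rl1 were the one pair of neighbours whose ranges did not overlap. In Wt 1 month ears it was Il33 at 29.5 ± 6.86, Il13ra1 at 28.5 ± 12.8, Il4ra at 7.81 ± 1.55, Crlf2 at 5.24 ± 2.88, Tslp at 1.37 ± 0.27, Il1rl1 at 0.89 ± 0.26 and Il13ra2 at 0.60 ± 0.38 CPM per kb. There the ranges did not overlap between Il13ra1 and Il4ra and between Crlf2 and Tslp.

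The balance of decoy to signalling receptor, taken as the ratio of Il13ra2 to Il13ra1 in CPM per kb within each library, differed between the genotypes in every library. At day 5 its lowest, median and highest values were 0.0703, 0.0822 and 0.122 in CARD14E138A ears, against 0.00678, 0.0129 and 0.0201 in Wt ears. At 1 month they were 0.0294, 0.0442 and 0.0596 in CARD14E138A ears and 0.00803, 0.0218 and 0.0286 in Wt ears, with no overlap at either time. The signalling receptor gene thus stayed above the decoy gene per kilobase in all 24 libraries. Both genes are X-linked and AT-rich. At 1 month the genotypes overlapped in the level of each gene and came apart only narrowly in the ratio, at 0.0294 against 0.0286. Il13ra2 had as few as 13 counts in a CARD14E138A 1 month library and 10 in a Wt 1 month library, so a few reads could close this gap.

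The 2 ligand-to-receptor ratios were lower in CARD14E138A ears by their medians. Il33 over Il1rl1 had a median of 20.6 (10.9 to 27.7) in CARD14E138A day 5 and 29.3 (24.4 to 39.9) in Wt day 5 ears, and of 11.9 (9.98 to 23.6) in CARD14E138A 1 month and 33.9 (17.0 to 58.1) in Wt 1 month ears. Tslp over Crlf2 had a median of 0.166 (0.0659 to 0.283) in CARD14E138A day 5 and 0.241 (0.207 to 0.288) in Wt day 5 ears, and of 0.134 (0.0320 to 0.319) in CARD14E138A 1 month and 0.332 (0.0857 to 0.557) in Wt 1 month ears. The ranges overlapped in all 4 comparisons. The ratio of Il4ra to Il13ra1 was 0.247 to 1.07 in CARD14E138A day 5 ears, above the 0.12 to 0.147 of Wt day 5 ears, and 0.255 to 3.95 and 0.131 to 0.639 in the CARD14E138A and Wt ears of 1 month. These ratios are given as descriptions, without a test. The genes of a ratio differ in exon length, and the part of the length index in the ratios and in the order per kilobase was not tested.

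**Figure D4:**
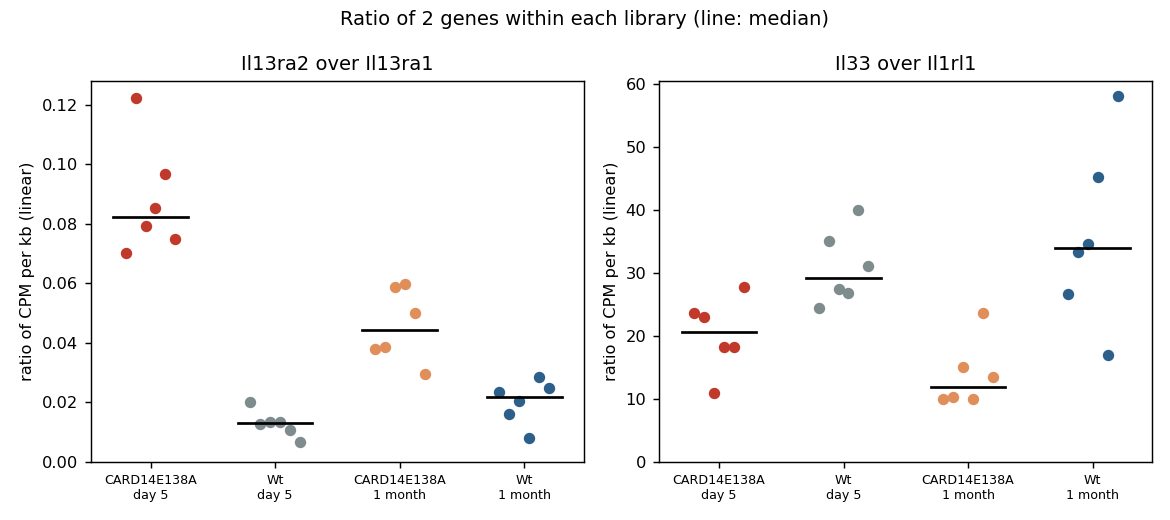
Ratios of CPM per kb within each library (linear axes from 0, line at the median), Il13ra2 over Il13ra1 and Il33 over Il1rl1. The first was 0.0703 to 0.122 in CARD14E138A and 0.00678 to 0.0201 in Wt at day 5, and the second had overlapping ranges at both times.

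Among the partners of these receptors outside the 7 genes, Il2rg rose at both times and Il7r at 1 month, and Il1rap was not called over all libraries. Of the IL-25 receptor chains, Il17ra rose and Il17rb fell at both times. Of 7 other alarmin and shared-chain genes 6 were tested, with 2 higher and 1 lower at day 5 and 3 higher and 2 lower at 1 month. Of all genes tested, 20.7% were higher and 20.2% lower at day 5, and 25.5% higher and 21.5% lower at 1 month. These shares are the background for the counts of every list and marker set below, and several of those counts are near them. The list's median log2 fold change was 0.43 at day 5 and 0.64 at 1 month. Il2rg, the common γ chain that pairs with IL-4Rα, had 14.2, 22.5 and 26.7 CPM as lowest, median and highest level in CARD14E138A day 5 ears, against 6.96, 8.15 and 8.86 CPM in Wt day 5 ears, a log2 fold change of 1.38 ± 0.18 (SE; edgeR adjusted p = 1.88e-06). At 1 month its log2 fold change was 1.27 ± 0.18 (SE; adjusted p = 2.52e-06), with no overlap at either time. Il7r, which pairs with CRLF2, was not called at day 5 (0.89 ± 0.38, SE; adjusted p = 0.0679) and rose at 1 month (1.53 ± 0.38, SE; adjusted p = 0.00194).

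Il1rap, the partner of ST2, was not called at either time over all libraries, with log2 fold changes of -0.06 at day 5 and 0.57 at 1 month in edgeR (adjusted p = 0.896 and 0.142). It ran from 17.0 to 74.9 CPM in CARD14E138A 1 month and from 12.3 to 55.6 CPM in Wt 1 month ears. With the GC index as a covariate, and on its low side, 4 of the 6 tested genes of this list were higher and 2 lower at 1 month. Il1rap was thus called in these 2 settings. On the high side 2 of the 6 were higher and 1 lower. Sigirr, an inhibitor of IL-1 family receptors, was not called at day 5 and fell by 0.59 at 1 month (adjusted p = 0.0117). Il17rb, the IL-25 binding chain, fell to 5.19 ± 1.67 CPM in CARD14E138A day 5 ears, against 9.14 ± 0.70 CPM in Wt day 5 ears (SD, n = 6 each), and to 2.67 ± 0.72 against 8.79 ± 1.84 CPM at 1 month. Its groups did not overlap at either time, and the log2 fold changes were -0.82 ± 0.19 (SE; adjusted p = 0.00168) and -1.72 ± 0.20 (SE; adjusted p = 2.52e-07). Il17ra, which the IL-17 and IL-25 receptors share, rose by 1.10 at day 5 and 0.71 at 1 month (adjusted p = 6.45e-08 and 1.08e-05). Il25 itself had at most 9 counts over the 6 libraries of a group and was not tested.

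Of the 5 type 2 cytokine genes 1, Il13, had enough counts to be tested, and it rose at both times. Il13 had 0.297, 1.62 and 2.05 CPM as lowest, median and highest level in CARD14E138A day 5 ears, against 0.0578, 0.182 and 0.308 CPM in Wt day 5 ears. In log2 terms Il13 rose by 2.78 ± 0.48 (SE; edgeR adjusted p = 7.34e-05), and 1 CARD14E138A library was within the Wt range. At 1 month it had 0.335, 0.71 and 1.61 CPM in CARD14E138A ears and 0.128, 0.27 and 0.526 CPM in Wt ears, a log2 fold change of 1.62 ± 0.45 (SE; adjusted p = 0.00431), which was not called in the low-side libraries alone. Il4 had 15, 8, 18 and 14 counts in all over the 6 libraries of CARD14E138A day 5, Wt day 5, CARD14E138A 1 month and Wt 1 month, and Il5 had 13, 7, 13 and 8. Il9 and Il31 had 1 count each, in CARD14E138A day 5 ears, so differences in these 4 cytokines were not detectable at this depth.

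Among other receptors of type 2 cytokines, Csf2rb, Csf2rb2 and Osmr rose at both times. Of 6 listed 5 were tested, with 4 higher at day 5, 3 higher at 1 month and none lower, and median log2 fold changes of 1.75 and 1.41. Csf2rb encodes the β chain common to the IL-3, IL-5 and GM-CSF receptors, and Csf2rb2 the mouse β chain of the IL-3 receptor alone. Csf2rb and Csf2rb2 had log2 fold changes of 2.55 ± 0.21 and 1.75 ± 0.15 at day 5 and 2.09 ± 0.21 and 1.85 ± 0.15 at 1 month (SE; edgeR adjusted p between 1.59e-09 and 3.23e-08). Osmr, a chain of the IL-31 and oncostatin M receptors, rose by 1.91 ± 0.21 and 1.41 ± 0.20 at the 2 times (SE; adjusted p = 1.84e-07 and 4.51e-06), while its partner Il31ra rose by 1.64 ± 0.41 at day 5 (SE; adjusted p = 0.0024) and was not called at 1 month (0.14 ± 0.39, SE). Il9r was not called at either time, and Il5ra was not tested.

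Of 12 signalling genes downstream of these receptors, 6 rose at day 5, and 8 rose and 2 fell at 1 month, with medians of 0.40 and 0.34. Stat3, Myd88, Irak4, Jak2 and Jak3 rose at both times. Myd88, the adaptor of the IL-33 receptor, had 103 ± 26.5 CPM in CARD14E138A day 5 ears and 35.6 ± 2.31 CPM in Wt day 5 ears (SD, n = 6 each), a log2 fold change of 1.53 ± 0.18 (SE; edgeR adjusted p = 4.37e-07), and 0.91 ± 0.17 at 1 month (SE; adjusted p = 0.000146). Stat6, the factor that IL-4Rα activates, was not called at day 5 (0.16 ± 0.10, SE; adjusted p = 0.203) and rose by 0.38 ± 0.10 at 1 month (SE; adjusted p = 0.00281). Stat5a rose at day 5 (0.93 ± 0.16, SE; adjusted p = 5.1e-05) and was not called at 1 month (0.29 ± 0.16, SE), and Stat5b and Irs2 fell at 1 month, by 0.48 and 0.79.

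**Figure D5:**
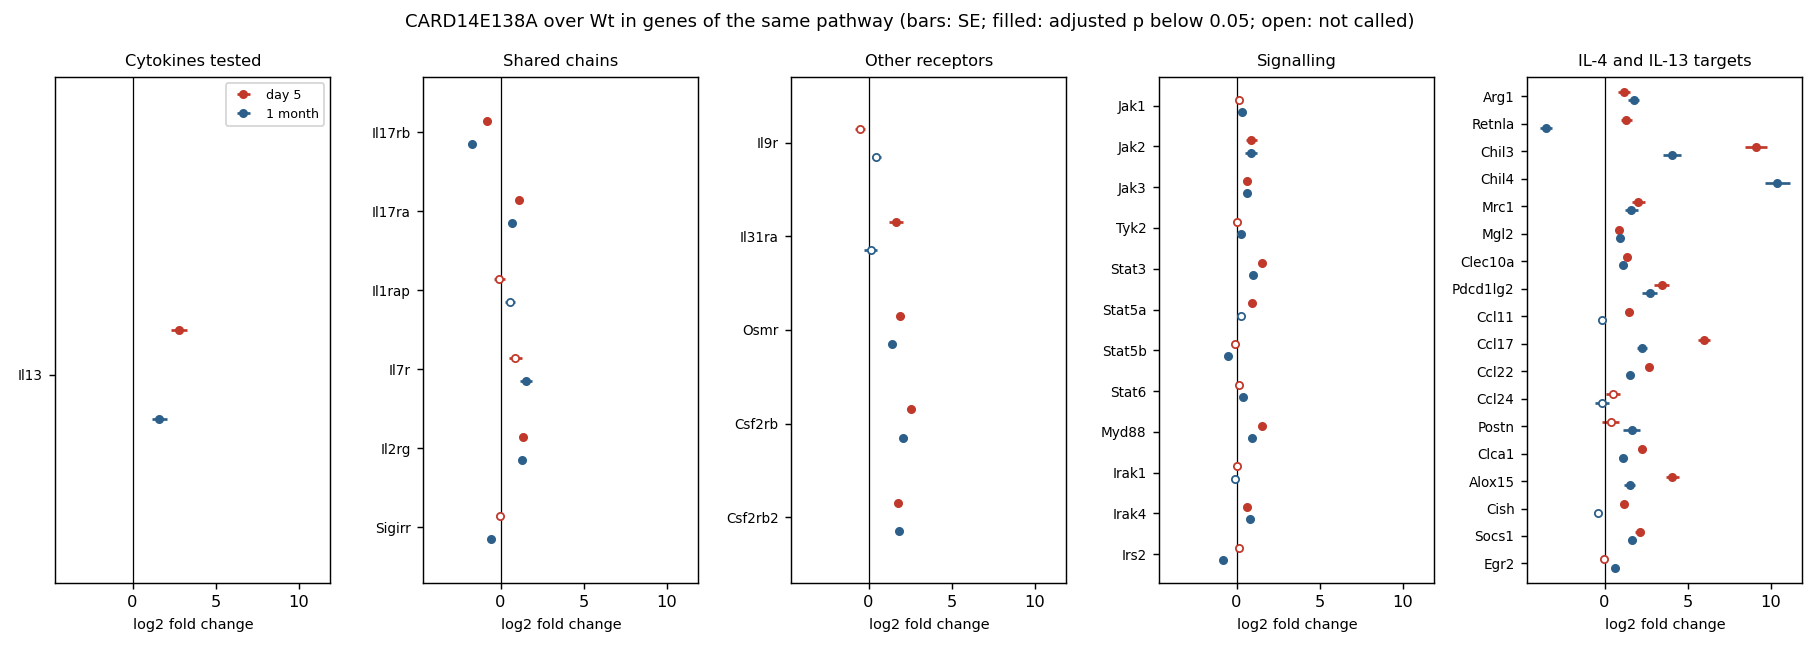
Log2 fold change, CARD14E138A over Wt, with SE, of the tested genes of 5 pathway lists at day 5 and 1 month, filled where the adjusted p was below 0.05. Chil4 at day 5 is left out because its Wt libraries held no count. Most IL-4 and IL-13 targets lie right of 0, and Retnla is at 1.31 at day 5 and at -3.53 at 1 month.

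Genes known as targets of IL-4 and IL-13 in mice were mostly higher. Of 19 listed 18 were tested: 15 were higher and none lower at day 5, and 14 higher and 1 lower at 1 month, with median log2 fold changes of 1.76 and 1.52, the same with genes that had no count in a group set at a bound of 3 counts. Ccl22, a chemokine that attracts Th2 and regulatory T cells, had 33.9, 36.4 and 42.6 CPM as lowest, median and highest level in CARD14E138A day 5 ears and 4.38, 6.00 and 7.11 CPM in Wt day 5 ears. Its log2 fold change was 2.66 ± 0.16 at day 5 and 1.52 ± 0.15 at 1 month (SE; edgeR adjusted p = 2.63e-11 and 2.88e-08). Ccl17, which binds the same chemokine receptor, rose by 5.98 ± 0.38 and 2.26 ± 0.32 (SE; adjusted p = 6.84e-11 and 4.28e-06).

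Chil3 and Chil4, chitinase-like genes of mouse macrophages and epithelia, were high at different times. Chil3 had 64.5 ± 41.3 CPM in CARD14E138A day 5 ears and 0.109 ± 0.103 CPM in Wt day 5 ears, and 5.20 ± 1.49 against 0.318 ± 0.193 CPM at 1 month (SD, n = 6 each). Chil4 had 0.0593 to 1.22 CPM in CARD14E138A day 5 ears and no count in Wt day 5 ears, and 346 to 1143 CPM against 0 to 2.00 CPM at 1 month. The 2 genes are close paralogs, and reads may be split between them. The 1 gene of the list that was lower, Retnla, was chosen after its values were seen: it had 5.96 to 21.9 CPM in CARD14E138A day 5 ears and 3.70 to 7.58 CPM in Wt day 5 ears, and 0.486 to 2.29 CPM against 10.7 to 31.5 CPM at 1 month. In the interaction test 8 of the 18 were lower at 1 month and none higher, where 4.09% of all genes were lower and 4.68% higher. The target genes are also reached by other signals, and were listed with earlier results of these data known.

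Mast cells, type 2 lymphocytes, eosinophils and basophils are known to carry ST2 or CRLF2. Of 9 mast cell markers 3 were higher and 1 lower at day 5 and 7 higher at 1 month, with medians of -0.08 and 1.17. Their summed level was 114 to 249.7 CPM in CARD14E138A day 5 and 166 to 214 CPM in Wt day 5 ears, and 284 to 706 CPM in CARD14E138A 1 month and 117 to 325 CPM in Wt 1 month ears. Fcer1a, the IgE receptor α chain, rose by 2.13 ± 0.39 and 3.21 ± 0.38 at the 2 times (SE; edgeR adjusted p = 0.000141 and 3.7e-07), Tpsab1 by 0.80 and 2.43, and Hdc, the histamine-forming enzyme, by 3.09 and 2.01, while Kit fell by 0.60 at day 5 and rose by 0.61 at 1 month. Of 8 ILC2 and Th2 markers 6 were tested, with 2 higher at day 5 and 3 higher and 2 lower at 1 month and medians of 0.07 and 0.74. Icos and Areg rose at both times, and Gata3 and Rora fell at 1 month (-0.68 and -1.32). The summed level, mostly Rora and Gata3, which skin cells also express, was 421 to 686 and 739.7 to 780.3 CPM in CARD14E138A and Wt ears at day 5 and 219 to 488 and 327 to 732 CPM at 1 month.

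Eosinophil markers were scarce: of 8 markers 4 were tested, with 3 higher at day 5 and 4 at 1 month and medians of 1.91 and 1.31. Their sum was 6.35 to 10.8 CPM in CARD14E138A and 3.59 to 5.98 CPM in Wt ears at day 5, and 9.92 to 28.7 and 2.96 to 12.3 CPM at 1 month. Ear1 had 0.389 to 2.47 CPM in CARD14E138A 1 month ears and no count in Wt 1 month ears, but Epx, the eosinophil peroxidase gene, had 2, 1, 2 and 0 counts over the libraries of CARD14E138A day 5, Wt day 5, CARD14E138A 1 month and Wt 1 month. Of 3 basophil markers 1 was tested, Cd200r3, which was not called at day 5 (log2 fold change 0.23) and rose by 1.36 at 1 month. The basophil sum was 0.831 to 3.19 and 0.967 to 2.16 CPM in CARD14E138A and Wt ears at day 5, and 1.90 to 4.06 and 0.246 to 1.17 CPM at 1 month.

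Of 5 regulatory T-cell markers 3 were higher at each time, with medians of 1.04 and 1.70. Foxp3, their defining factor, rose to 3.88 to 7.70 CPM in CARD14E138A 1 month ears, against 0.274 to 1.02 CPM in Wt 1 month ears. Their sum was 44.1 to 63.1 and 40.8 to 51.6 CPM in CARD14E138A and Wt ears at day 5, and 37.8 to 60.4 and 26.2 to 53.8 CPM at 1 month. T-cell markers moved otherwise: of 5, 3 were lower at day 5, and 2 were higher and 2 lower at 1 month, with medians of -0.78 and -0.60 and sums of 13.1 to 23.8 and 28.1 to 32.9 CPM in CARD14E138A and Wt ears at day 5 and 20.5 to 39.5 and 30.4 to 37.9 CPM at 1 month. Cd3e and Cd3g fell and Cd4 and Trac rose at 1 month. The part of these cell types in the rise of Il1rl1 and Crlf2 was not tested.

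Il4ra and Il13ra1 are also used in myeloid cells. Of 5 macrophage markers 4 were higher at day 5 and 5 at 1 month, with medians of 1.09 and 1.04 and sums of 198 to 784 and 178 to 209.7 CPM in CARD14E138A and Wt ears at day 5 and 325 to 561 and 151 to 281 CPM at 1 month. Of 8 dendritic and Langerhans cell markers 3 were higher at day 5 and 7 at 1 month, with medians of 0.48 and 0.97 and sums of 141 to 167 and 98.5 to 124 CPM at day 5 and 198 to 231 and 105 to 148 CPM at 1 month. Cd163, a macrophage scavenger receptor, rose by 2.12 at day 5 and 0.74 at 1 month, and Itgax by 1.41 and 1.60. Their part in the rise of the receptor genes was not tested.

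Of the structural cells of the ear, which are known sources of IL-33 and also carry IL-13 receptors, 6 basal keratinocyte markers gave 2 higher and 2 lower at day 5 and 3 higher and 2 lower at 1 month, with medians of 0.37 and 0.13 and sums of 13693 to 18123 and 12196 to 16938 CPM in CARD14E138A and Wt ears at day 5 and 13775 to 23194 and 11211 to 17309 CPM at 1 month. Of 5 suprabasal markers 1 was higher and 1 lower at day 5 and 1 higher and 3 lower at 1 month, with medians of -0.42 and -0.57, and and sums of 11991 to 17966 and 12582 to 17983 CPM in CARD14E138A and Wt ears at day 5 and 14183 to 25671 and 7508 to 14596 CPM at 1 month, with Krt1 higher and Lor lower at both times. Of 6 fibroblast markers 1 was higher and 3 lower at day 5 and 5 higher and 1 lower at 1 month, with medians of -0.43 and 0.78. Their sum was 3984 to 6254 CPM in CARD14E138A and 9756 to 13458 CPM in Wt ears at day 5, led by Col1a1 and Col1a2, and 7538 to 20994 and 6022 to 10079 CPM at 1 month. Of 6 endothelial markers 1 was higher and 1 lower at day 5 and 3 higher at 1 month, with medians of -0.10 and 0.38. Adipocyte, skeletal muscle and cartilage markers were mostly lower, with 3 of 4, 3 of 4 and 3 of 3 tested lower at day 5 and 4, 4 and 2 lower at 1 month.

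The genes whose pattern over the 24 libraries was most like each of the 6 genes with at least 5 CPM were found as those with the smallest root-mean-square difference of centred log2 CPM among 13118 candidates. For Il4ra they were Slfn2, Plaur and Adam8, at differences of 0.284, 0.289 and 0.329, and for Il1rl1 Entpd1, Ctss and Me2, at 0.267, 0.316 and 0.32. For Il13ra2 they were Gda, Ifi209 and Ms4a4a, at 0.631, 0.639 and 0.667. The difference grows with a gene's own spread, and the SD of log2 CPM over the 24 libraries was 1.68 for Il13ra2, 1.33 for Il4ra, 0.83 for Il13ra1, 0.74 for Il1rl1, 0.61 for Crlf2 and 0.43 for Il33, so distances are not compared between the 6 genes. Il13ra1 was nearest to Bcap29, Bach1 and Rab8b (0.187, 0.214 and 0.218), Crlf2 to Ssbp4, Rab3il1 and Zyx (0.211, 0.219 and 0.244), and Il33 to 5830417I10Rik, Fnip2 and Dhx33 (0.303, 0.316 and 0.329). The genes near Il13ra1 were 40.2% to 46.7% GC and those near Crlf2 51.8% to 64.3%, and all these libraries share the composition difference described above. None was a member of the 7.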

How the data were processed

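RNA of whole ear was measured in 24 libraries. What the authors deposited is a table of expected counts by Ensembl gene, unscaled. RSEM 1.3.0, STAR 2.5.2, DESeq2 1.14.1 and GRCm38 are named in the submitters' processing notes, and the libraries were polyA-selected and read single-end, per the labels' protocols. Annotation release and strand setting: not given in the sources used here. Counts were rounded (6.71% of values were not whole), filtered with filterByExpr by group, scaled by TMM and fitted in edgeR 4.0.16 (R 4.3.3) with 1 coefficient per group and the robust quasi-likelihood F test, two-sided, with Benjamini-Hochberg adjustment over 17287 genes and calls at an adjusted p below 0.05. A standard error is the size of the log2 fold change divided by the root of F.

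Expression is in CPM on TMM-scaled library sizes, whose precision follows the total counts given in the text. Log2 CPM for the like-pattern genes used a prior count of 2. GENCODE M21 (GRCm38) supplied coordinates, exon lengths and base composition for 51633 gene identifiers and lacked 279. The GC index compares genes above 54.4% GC with genes below 44.8%. No 2 libraries of a group agreed within sampling noise (smallest chi-square per degree of freedom 5.13).

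The 7 genes, the 20 lists of pathway genes and cell markers and the tests were chosen with earlier results of these data known. Named genes were the 7, the members of the ligand, cytokine, receptor and signalling lists, up to 4 members of each target or marker list with the smallest adjusted p, and for each of the 7 with at least 5 CPM in a group the 3 of most like pattern. Alternatives were DESeq2 1.42.0, limma voom (3.58.1) with quality weights, RLE factors, total counts, a filter at 1 CPM in 6 libraries or none, the libraries compared alone, a fit that is not robust, a minimum log2 fold change of 1, the replicate number as a block and leaving out each library. The GC index as covariate and the split of the 1-month libraries at 0.2 were added after seeing the data. The calculations were tested on simulated counts.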

Additional observations from a re-analysis of the deposited data

Results flagged for a closer look

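In Crlf2, Wt 1 month replicate 5 stood apart from its group at 16.2 CPM, where the other 5 libraries had 4.34 to 7.47 CPM, a gap of 0.737 of the group's range. Its library had a GC index of 0.764, and Wt replicate 2, with an index of 1.27, had 7.47 CPM. Without it the log2 fold change of Crlf2 at 1 month was 1.15. Of 28 gene and group values looked at in this way this was the 1 that stood apart, and chance gives about 1 in 20.

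The genotype difference of Il4ra differed between the times, by -1.39 on the log2 scale at 1 month less day 5 (edgeR interaction test, adjusted p = 0.0251). The CARD14E138A libraries had 86.5 to 249 CPM at 1 month and 106 to 436 CPM at day 5, and the Wt libraries had 36.1 to 59.3 CPM at 1 month and 29.4 to 35.6 CPM at day 5.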

How the results depend on the processing

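The genotype calls of Il1rl1, Il4ra and Il13ra2 kept their direction and call under each setting listed in advance (DESeq2, voom, 2 other scalings, 2 filters, fewer libraries, block, leaving 1 out), except that Il1rl1 at day 5 missed the minimum fold change. Counts of the 7 genes called and of all genes called are given here where they moved by over 1.5 times, and the cause was not tested. At day 5 (5 of the 7, 7068 of all) the 7 gave 3 with no filter, 2 with a minimum log2 fold change of 1 and 3 with the replicate block, and all genes gave 11693 with voom and 2631 with the minimum. At 1 month (8139 of all) the minimum gave 3573. In the interaction (1 of the 7, 1516 of all) the 7 gave 2 with DESeq2, 2 with voom, 0 with the replicate block, 3 with the GC covariate and 2 with the low-GC libraries, and all genes gave 8216 with voom and 3052 with the GC covariate. In CARD14E138A over time (4 of the 7, 3360 of all) the 7 gave 2 with no filter and 1 each with the libraries compared alone, the minimum and the replicate block, and all genes gave 5879 with voom, 2109 with the libraries compared, 1479 with the minimum, 5943 with the low-GC and 9938 with the high-GC libraries. In Wt over time (0 of the 7, 1572 of all) the 7 gave 2 with voom, 1 with the libraries compared and 1 and 2 with the low-GC and high-GC libraries, and all genes gave 2458 with DESeq2, 8219 with voom, 670 with the minimum, 1019 with the replicate block, 2679 with the GC covariate, 441 and 7278 with the low-GC and high-GC libraries. There the main split of 1086 higher and 486 lower was 1457 and 374 with RLE factors and 1518 and 346 with total counts. Leaving out 1 library gave 3 to 5 of the 7 at day 5, 1 to 2 in the interaction, 1 to 4 in CARD14E138A over time, and 937 (without Wt 1 month replicate 5) to 3026 (without Wt 1 month replicate 1) of all genes in Wt over time, where leaving out Wt day 5 replicate 2 or 4 also moved the count by over 1.5 times. The libraries compared alone give no value for the interaction.

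The sign of a log2 change turned only where no call was made in the main fit. With voom these were Crlf2 (-0.39) and Il13ra1 (0.022) in the interaction and Tslp (0.038) and Il13ra2 (-0.49) in Wt over time, and with no filter Tslp in Wt over time (0.001). The GC covariate turned Crlf2 in the interaction (-0.007) and Tslp in Wt over time (0.15), and the low-GC libraries turned Tslp (0.11), Il1rl1 (0.082) and Il13ra1 (0.073) in Wt over time. The high-GC libraries turned Il13ra1 at 1 month (-0.14), Il33 in the interaction (-0.17), Il33 (-0.24) and Crlf2 (0.41) in CARD14E138A over time, and Il33 (-0.078), Crlf2 (0.14) and Il13ra2 (-0.48) in Wt over time. Leaving out 1 library gave ranges across 0 for Tslp at day 5 (-0.036 to 0.18), for Il33 (-0.24 to 0.17) and Crlf2 (-0.18 to 0.41) in the interaction, for Il33 (-0.18 to 0.24) and Crlf2 (-0.32 to 0.064) in CARD14E138A over time, and in Wt over time for Il33 (-0.024 to 0.16), Tslp (-0.10 to 0.049), Il1rl1 (-0.19 to 0), Crlf2 (-0.49 to 0.002) and Il13ra2 (-0.086 to 0.36).

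The replicate numbers showed no steady pairing of the libraries: correlations of same-numbered libraries between groups ran from -0.733 to 0.394. These correlations include the differences in base composition at 1 month, so they cannot exclude pairing. With the numbers as a block the adjusted p was 0.0685 for the Il4ra interaction, 0.0691 for Crlf2 and 0.0762 for Il13ra1 at day 5. Tslp at 10 to 55 counts and the type 2 cytokines other than Il13 are limited by depth.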
